A study of Mus musculus with 22 samples.

Results

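The INO80 complex is a chromatin remodeler, an assembly of subunits that uses the energy of ATP to move nucleosomes and that has been linked to the removal of the histone variant H2A.Z from chromatin. The genes of 10 subunits were examined, namely Ino80, Ino80b, Ino80c, Ino80d, Ino80e, Actr5, Actr8, Nfrkb, Mcrs1 and Tfpt. They were found by gene symbol, each symbol matched 1 gene, and together they are 10 of the 55335 genes in the table. The list was chosen with earlier results of these data known. RNA-seq had been performed on 22 libraries of B6D2F1 mouse embryos, each made from 15 pooled embryos. The female parents were 8 weeks old and were mated with B6D2F1 males. H2A.Z KD embryos had received about 10 pL of a mixture of siRNAs against H2A.Z (20 µM) as zygotes, between 20 and 22 h after the hCG injection that induces ovulation. The methods call the controls of quantitative PCR noninjected, and whether the same holds for the controls of these libraries is not stated in the sources used here. Harvest took place at 43 to 44 h post hCG for 2-cell embryos (4 control and 3 KD libraries), at 78 h for morulae (4 and 3) and at 94 h for blastocysts (4 and 4). A pool of whole embryos mixes the outer and inner cells of morulae and the trophectoderm and inner cell mass of blastocysts. The paper reports that its experiments were repeated, but it does not say which libraries came from separate collections of embryos, so the p-values measure the spread between these libraries, which may be technical.

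Within the complex, INO80 is the ATPase that drives remodeling and the scaffold on which the other subunits sit. ACTR8 is an actin-related protein that senses the DNA linking nucleosomes, together with actin, ACTL6A and YY1, whereas ACTR5, INO80B and INO80C grip the nucleosome with the help of the RUVBL ATPases. NFRKB, MCRS1, TFPT, INO80D, INO80E and the deubiquitinase UCHL5 form a module found in animals but not in yeast, and in mouse embryonic stem cells INO80 helps to keep genes of pluripotency accessible.

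Expression is given as FPKM, fragment counts corrected for transcript length and for the mapped total of a library, which allows levels of different genes to be compared. FPKM are shares of the RNA of a library, so a level says nothing of the RNA content of an embryo, and the number of reads behind a value is unknown. The targeted gene was examined first. H2afz was at 1244, 1236, 905 and 1178 FPKM in 2-cell control replicates 1, 2, 4 and 5, against 415, 139 and 112 in KD replicates 1, 2 and 4. Its values in morulae were 1158, 1336, 1511 and 1421 FPKM in control replicates 1, 2, 7 and 8 and 30.3, 25.7 and 29.0 in KD replicates 1, 2 and 6. In blastocysts it was at 2656, 2431, 1945 and 2055 FPKM in control replicates 1, 4, 5 and 6 and at 64.2, 67.2, 53.2 and 57.6 in the KD replicates of the same numbers. All KD libraries thus lay below all control libraries of their stage, and 2-cell KD replicate 1 kept the most H2afz of the KD libraries. The stage labels were compared with marker genes as well. The summed FPKM of 5 transcripts of the 2-cell stage, with Tcstv3 the most abundant in all control libraries, was 303.3 to 533 in 2-cell control embryos against 5.14 to 15.7 in control morulae and 0.540 to 2.54 in control blastocysts. The sum of 6 trophectoderm markers, with Tfap2c the most abundant in 2-cell embryos and Krt18 in the later stages, was 7.21 to 15.2, 109 to 146 and 989 to 1474 in the same order. Maternal transcripts summed to 730.4 to 991 FPKM in 2-cell control embryos and to at most 10.0 in control morulae. Markers of cumulus and granulosa cells, which surround the oocyte, summed to at most 3.41 FPKM in any of the 22 libraries.

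The level of each subunit gene in normal development was described first, in the 12 control libraries. At the 2-cell stage Tfpt was the most abundant, with a mean of 35.8 FPKM ± 4.47 (SD, n = 4), followed by Mcrs1 (23.5 ± 7.40) and Ino80c (20.6 ± 4.70), whose ranges overlapped. The remaining members were far lower, from Ino80d (3.94 ± 0.753) through Ino80e (3.88 ± 1.43), Actr5 (3.14 ± 0.956), Nfrkb (2.50 ± 0.839), Ino80 (2.18 ± 0.289) and Actr8 (2.16 ± 0.582) to Ino80b (0.947 ± 0.383). Between Ino80d and Actr8 each gene overlapped the next in this order, and Ino80b lay below all of them. In morulae the order of the leading members changed to Mcrs1 (59.6 ± 2.32), Ino80c (38.3 ± 1.96) and Tfpt (26.1 ± 6.64), with no overlap among them, ahead of Ino80e (9.44 ± 3.19) and Actr8 (7.01 ± 3.05). The means of Ino80d (2.00), Ino80b (1.54), Actr5 (1.28), Ino80 (1.27) and Nfrkb (1.02) followed, and each overlapped its neighbour. In blastocysts Ino80c (25.4 ± 4.64) and Mcrs1 (25.2 ± 8.26) overlapped at the top and lay above Actr8 (7.49 ± 1.94), Tfpt (6.20 ± 1.87) and Ino80e (4.65 ± 3.31), which overlapped one another. Ino80d (1.28), Ino80 (0.745), Nfrkb (0.538), Actr5 (0.310) and Ino80b (0.290) came last, and of the 9 pairs of neighbours 8 overlapped. The gene of the ATPase itself was thus among the less abundant members at every stage.

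**Figure D1:**
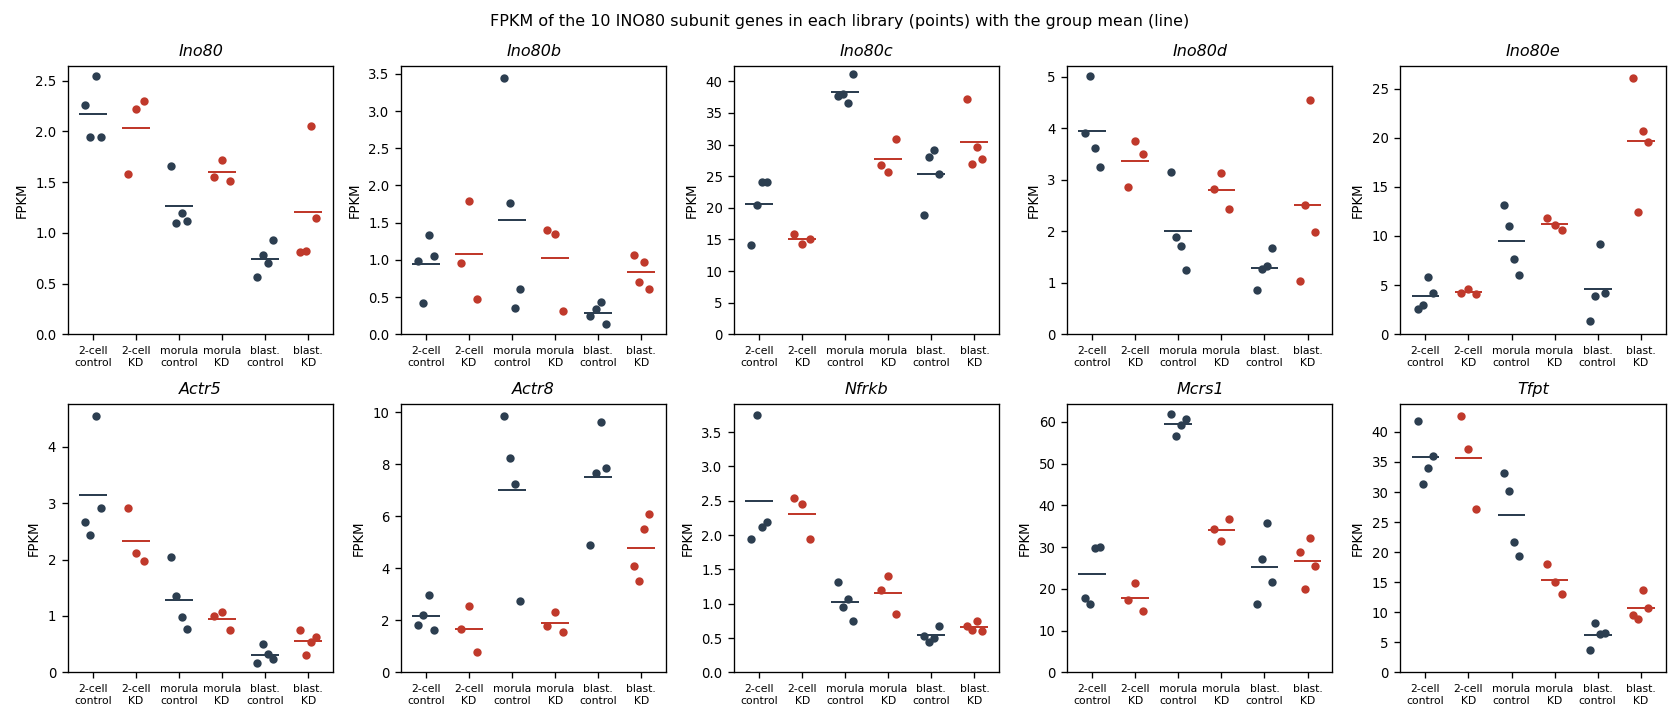
FPKM (vertical axes, linear, from 0) of the 10 subunit genes in every library (points) of the 6 groups, with the group mean as a line, control in dark blue and KD in red. Mcrs1 stood at 56.6 to 62.0 in control morulae and at 31.6 to 36.6 in KD morulae, and Ino80e at 1.33 to 9.23 in control and 12.5 to 26.1 in KD blastocysts.

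To follow these genes through normal development, control morulae were compared with control 2-cell embryos. The test was limma on log2(FPKM + 1) after scaling between libraries, limited to genes that reached 1 FPKM in 3 or more of the libraries compared. A gene was called where the p-value, adjusted over all genes tested by the Benjamini-Hochberg method, was under 0.05. With a pseudocount of 1, log2 fold changes understate the change of genes near or under 1 FPKM. All 10 members passed the filter, and 4 were higher and 5 lower in morulae, while 43% of the 13655 genes tested were called higher and 40.3% lower. Of these genes, 4041 were under 1 FPKM in all libraries of 1 of the stages, so that the filter fixed their direction, and among the 9614 others, which include all members, the shares were 45.6% and 30.9%. Calls in either direction were thus common among all genes, and whether the members differ from them was not tested. All morula libraries lay above all 2-cell libraries for 40% of the genes tested and below them for 37.2%. With replicate number as a block, Ino80, Actr5 and Tfpt were no longer called and Ino80b was, as given under the processing.

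The ATPase gene Ino80 was at 2.26, 1.95, 2.55 and 1.95 FPKM in the 2-cell control libraries and at 1.66, 1.10, 1.19 and 1.12 in control morulae. All morula libraries lay below all 2-cell libraries, and the log2 fold change was -0.49 (SE 0.13, adjusted p = 0.00451 from limma). Among the subunits that contact the nucleosome, Actr5 was at 2.68, 2.43, 4.54 and 2.91 FPKM in 2-cell embryos and at 2.04, 1.35, 0.974 and 0.773 in morulae. The groups did not overlap (log2 fold change -0.86, SE 0.18, adjusted p = 0.000681 from limma). Ino80c went the other way, from 14.1, 20.4, 24.1 and 24.0 FPKM to 37.7, 38.0, 36.5 and 41.1, again without overlap (0.88, SE 0.17, adjusted p = 0.000494 from limma). Ino80b was at 0.979, 0.421, 1.33 and 1.05 FPKM in 2-cell embryos and at 3.44, 1.77, 0.354 and 0.604 in morulae. The morula libraries of Ino80b spanned the 2-cell values on either side and the gene was not called (0.23, SE 0.29, adjusted p = 0.476 from limma). Actr8, the actin-related subunit that senses linker DNA, was at 1.82, 2.22, 2.95 and 1.64 FPKM in 2-cell embryos and at 9.86, 8.22, 7.23 and 2.73 in morulae. It was called higher (1.24, SE 0.27, adjusted p = 0.000981 from limma), although morula replicate 8 lay within the 2-cell range.

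In the module specific to animals, Mcrs1, which is also a subunit of a histone acetyltransferase complex, was at 17.9, 16.4, 29.8 and 30.1 FPKM in 2-cell control embryos and at 62.0, 56.6, 59.2 and 60.7 in control morulae. All morula libraries were higher, by 1.35 on the log2 scale (SE 0.19, adjusted p = 2.75e-05 from limma). Ino80e rose as well, from 2.59, 2.99, 5.78 and 4.16 FPKM to 13.1, 11.0, 7.63 and 6.06 without overlap (1.08, SE 0.22, adjusted p = 0.000574 from limma). Ino80d was at 3.90, 5.00, 3.62 and 3.25 FPKM and then at 3.16, 1.89, 1.70 and 1.25, a log2 fold change of -0.75 (SE 0.19, adjusted p = 0.00303 from limma). Nfrkb, whose protein holds the deubiquitinase on the complex, was at 1.94, 3.75, 2.11 and 2.20 FPKM and then at 1.31, 0.958, 1.06 and 0.745, a log2 fold change of -0.77 (SE 0.18, adjusted p = 0.00162 from limma). Every morula library of Ino80d and of Nfrkb lay below every 2-cell library. Tfpt was at 41.8, 31.3, 34.0 and 36.0 FPKM and then at 33.2, 30.2, 21.7 and 19.3. Morula replicate 1 lay within the 2-cell range, and the log2 fold change was -0.47 (SE 0.18, adjusted p = 0.0299 from limma). With each library left out in turn this adjusted p lay between 0.0217 and 0.123, and the call was lost without 2-cell control replicate 1 (0.0624), morula control replicate 7 (0.109) or morula control replicate 8 (0.123). It was also lost without the filter (0.0511).

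Control blastocysts were then compared with the same control morulae. Of the 10 members, 7 passed the filter on low FPKM, and Ino80b, Actr5 and Nfrkb were not tested. The filter fixed the direction of Ino80, as described below. Of the 6 others, 4 were lower and 0 higher, while 27.6% of the 11849 genes tested were called higher and 28.8% lower. Without 1275 genes that, like Ino80, were under 1 FPKM in all libraries of 1 of the stages, these shares were 24.1% and 27.6% of 10574 genes. At an unadjusted p under 0.05 limma found 7253 of the 11849 genes, 6 of them members, Ino80 included. The only member tested with a positive log2 fold change was Actr8 (0.08, SE 0.27, adjusted p = 0.812 from limma). All blastocyst libraries lay above all morulae for 27.8% of the genes tested and below them for 22.8%. Ino80 was at 0.569, 0.779, 0.699 and 0.934 FPKM in the blastocyst control libraries, all below 1 and below the morulae. It passed the filter only through the morulae, so it had to be lower in blastocysts and was left out of the count. Without the filter its log2 fold change was -0.41 (adjusted p = 0.0188 from limma). Over all settings the adjusted p of Ino80 from limma ranged from 0.0139 to 0.0367. The fits that kept the filter fixed the direction of Ino80, so this range does not test how stable the call is. Tfpt was at 3.68, 8.20, 6.41 and 6.53 FPKM in blastocysts. These values lay well below all morulae, a log2 fold change of -2.0 (SE 0.20, adjusted p = 7.45e-06 from limma) and the largest among the members tested. Mcrs1 was at 16.4, 27.2, 35.7 and 21.7 FPKM and Ino80c at 18.8, 28.1, 29.2 and 25.4. Both lay below all morulae, with log2 fold changes of -1.35 (SE 0.18, adjusted p = 7.13e-05) and -0.68 (SE 0.15, adjusted p = 0.00213) from limma. Ino80e was at 1.33, 3.91, 9.23 and 4.15 FPKM. Blastocyst replicate 5 lay among the morulae, and the log2 fold change was -1.10 (SE 0.34, adjusted p = 0.0159 from limma). This call was lost without the filter (adjusted p = 0.0862, of a range from 0.00148 to 0.0862 over the alternatives), and the exact permutation test gave p = 0.0857.

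Actr8 was at 4.89, 7.65, 9.60 and 7.83 FPKM in control blastocysts, within the range of the morulae. The sign of its difference turned without morula control replicate 8 (-0.23) and without blastocyst control replicate 5 (-0.0010), and it was not called with any library left out. Ino80d was at 0.852, 1.28, 1.32 and 1.68 FPKM and missed the threshold (-0.42, SE 0.17, adjusted p = 0.0578 from limma). The adjusted p of Ino80d ranged from 0.0262 to 0.142 with each library left out and passed without morula control replicate 8 (0.0262) or blastocyst control replicate 6 (0.0477). The 3 members not tested were at 0.242, 0.345, 0.437 and 0.135 FPKM (Ino80b), at 0.174, 0.504, 0.331 and 0.230 (Actr5) and at 0.527, 0.449, 0.493 and 0.682 (Nfrkb). All of their blastocyst values were under 1 FPKM, and those of Actr5 and Nfrkb lay below all morulae. Without the filter, limma gave -0.80 for Actr5 (adjusted p = 0.00875), -0.42 for Nfrkb (adjusted p = 0.0223) and -0.84 for Ino80b (adjusted p = 0.125).

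The control libraries of a stage were not uniform, and replicate numbers fall into ranges that the labels do not explain. In control morulae, replicates 1 and 2 both lay above replicates 7 and 8 for 6 of the 10 members (Ino80b, Ino80d, Ino80e, Actr5, Actr8 and Tfpt) and for 27.3% of 15697 genes, and replicate 1 was the highest library for 9 members and 40.2% of these genes. In 2-cell control embryos replicates 1 and 2 both lay below replicates 4 and 5 for 5 members (Ino80b, Ino80c, Ino80e, Actr5 and Mcrs1) and above them for Ino80d, against 30.3% and 20.4% of these genes. In control blastocysts, replicate 1 was the lowest library for 8 members and 42.1% of these genes. It also had the highest summed FPKM over all genes of the 22 libraries (722576) and the smallest summed FPKM of the members (47.4, against 69.3 to 93.4 in the other control blastocysts).

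The effect of H2A.Z depletion was examined next, stage by stage, in KD against control embryos. At the 2-cell stage 0 of the 10 members were called higher and 0 lower, as were 0% and 0% of the 12160 genes tested with limma. At an unadjusted p under 0.05 there were 701 genes, 0 of them members, and the exact permutation test over libraries gave no member a p under 0.05 either. H2afz itself had a log2 fold change of -2.53 (SE 0.38, adjusted p = 0.543 from limma), and without KD replicate 1 it was -3.12 with an adjusted p of 0.000907 (range 0.000907 to 0.861 with each library left out). Log2 fold changes of the members ranged from -0.33 (Ino80c) to 0.21 (Ino80e), and KD and control libraries overlapped for all 10, while 2.65% of all genes had all KD libraries above and 4.13% all below the control libraries. Ino80c was at 15.8, 14.3 and 15.1 FPKM in KD replicates 1, 2 and 4, within the lower part of the control range. Tfpt was at 42.7, 37.1 and 27.2 FPKM, which spans the control values on either side. Mcrs1 was at 17.4, 21.3 and 14.8 FPKM, and Ino80 at 1.58, 2.22 and 2.30. The other members, which overlapped their control libraries, were at 4.16, 4.58 and 4.10 (Ino80e), 2.86, 3.74 and 3.49 (Ino80d), 2.92, 2.12 and 1.98 (Actr5), 2.55, 2.45 and 1.94 (Nfrkb), 1.65, 2.55 and 0.775 (Actr8) and 0.953, 1.80 and 0.477 (Ino80b). The median SE of a log2 fold change over all genes was 0.21 in this comparison.

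In morulae 2 of the 10 members were lower in KD embryos, Mcrs1 and Actr8, and 0 were higher. Among the 10989 genes tested 4.23% were called higher and 9.04% lower. All KD libraries lay above all control libraries for 6.7% of these genes and below them for 22.9%. At an unadjusted p under 0.05 limma found 3352 of the 10989 genes, 4 of them members. These were Mcrs1, Actr8, Tfpt and Ino80d, of which Ino80d had a positive log2 fold change. With the added threshold of an absolute log2 fold change above 1, which the study used, 3.52% of all genes were called and Actr8 was the member that met it. In pools of whole embryos, fewer cells of a type and less RNA per cell cannot be told apart.

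Mcrs1 was at 34.4, 31.6 and 36.6 FPKM in morula KD replicates 1, 2 and 6, against 56.6 to 62.0 in the control libraries. The groups did not overlap, with means of 34.2 ± 2.54 (SD, n = 3) and 59.6 ± 2.32 (SD, n = 4). The log2 fold change was -0.66 (SE 0.14, adjusted p = 0.0139 from limma). Every KD morula value of Mcrs1 thus lay below every control morula value, and each exceeded every 2-cell KD value. KD morulae were not tested against 2-cell KD embryos. Actr8 was at 1.80, 2.30 and 1.57 FPKM in KD morulae, against 9.86, 8.22, 7.23 and 2.73 in control morulae. All KD libraries were lower, but control replicate 8 lay close to them, and KD morulae stayed near the level of 2-cell control embryos (1.64 to 2.95). The log2 fold change was -1.27 (SE 0.29, adjusted p = 0.0200 from limma). With so few KD libraries both calls depended on individual libraries. With each library left out, the adjusted p ranged from 0.0103 to 0.0705 for Mcrs1, which was lost without KD replicate 1 (0.0609) or 2 (0.0705), and from 0.00290 to 0.0717 for Actr8, which was lost without KD replicate 1 (0.0717), 2 (0.0515) or 6 (0.0530). Without the filter the adjusted p of Actr8 was 0.126, and its exact permutation test gave p = 0.0571.

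Among members that missed the threshold, Tfpt was at 18.0, 15.1 and 13.1 FPKM in KD morulae, below all control libraries (19.3 to 33.2). Its log2 fold change was -0.58 (SE 0.18, adjusted p = 0.0551 from limma), and the call depended on the setting, since it passed without scaling (adjusted p = 0.0435) and with a batch term for low against high replicate numbers (adjusted p = 0.0102), of a range from 0.0102 to 0.158 over the alternatives tried. Ino80c was at 26.8, 25.6 and 30.8 FPKM, also below all control libraries, with a log2 fold change of -0.33 (SE 0.15, adjusted p = 0.173 from limma). Ino80e was at 11.8, 11.1 and 10.6 FPKM, within the control range (0.39, SE 0.20, adjusted p = 0.215 from limma). The ATPase gene Ino80 was at 1.56, 1.72 and 1.51 FPKM, of which replicate 2 lay just above control replicate 1 and the others above control replicates 2, 7 and 8 (0.28, SE 0.14, adjusted p = 0.217 from limma). Ino80d was at 2.82, 3.13 and 2.43 FPKM (0.46, SE 0.19, adjusted p = 0.124 from limma), with a range of 0.0397 to 0.318 when libraries were left out, and it passed without control replicate 1 (0.0397). Ino80b (1.41, 1.35 and 0.307 FPKM), Actr5 (1.01, 1.07 and 0.759) and Nfrkb (1.19, 1.41 and 0.853) overlapped the control libraries. Their log2 fold changes were -0.15, -0.13 and 0.16.

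The choice of scaling weighs on this comparison, and the values above are relative to a median of all genes near 0. Leaving FPKM unscaled moved the median log2 fold change of all genes by -0.10, from 0.02 to -0.09, and the share of called genes that were higher from 31.9% to 15.3%. The shares of all genes also depended on single libraries and on the setting. With all libraries 465 genes were called higher and 993 lower, and these counts were 558 and 1186 without control replicate 1, 294 and 747 without control replicate 2, 259 and 651 without control replicate 7, 268 and 587 without control replicate 8, 164 and 415 without KD replicate 1, 140 and 411 without KD replicate 2 and 356 and 877 without KD replicate 6. They were 129 and 283 without the filter, 281 and 1553 without scaling, 435 and 983 with a pseudocount of 0.1 and 777 and 1261 with a batch term for low against high replicate numbers. Unscaled, 4 members were called lower, Tfpt and Ino80c in addition to Actr8 and Mcrs1. In the same libraries, the summed FPKM of 5 markers of inner cell mass and epiblast was 128 to 171 in control and 40.7 to 56.0 in KD morulae, with Nanog the most abundant in all control libraries, and 1 of 4 tested markers, Nanog, was called lower. The mean of Nanog was 106 FPKM in control and 20.7 in KD morulae. Pou5f1 (-0.49) and Sox2 (-0.03) also had negative log2 differences, whereas those of Klf4 (0.15) and Fgf4 (0.30) were positive. The sum of the trophectoderm markers was 109 to 146 in control and 83.9 to 117 in KD morulae, with 0 of 5 called. The part of these marker differences in the member results was not tested.

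The paper reports that the KD strongly lowered the share of embryos that formed blastocysts, while development to the morula stage was unaffected. Which embryos were pooled for the KD libraries at 94 h is not stated. Differences in stage or in survival between these groups therefore cannot be told apart from other effects of the KD. In blastocysts 6 of the 10 members passed the filter, and Ino80, Ino80b, Actr5 and Nfrkb were not tested. Of the 6, Ino80e and Tfpt were higher in KD embryos and Actr8 was lower, while 16.7% of the 11828 genes tested were called higher and 19.8% lower. All KD libraries lay above all control libraries for 14.6% of these genes and below them for 20%. With the threshold on the fold change added, 13.7% of all genes were called and Ino80e was the member that met it. No member that was called in morulae was called in the opposite direction in blastocysts.

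Ino80e was at 26.1, 12.5, 20.7 and 19.6 FPKM in KD replicates 1, 4, 5 and 6, against 1.33, 3.91, 9.23 and 4.15 in control blastocysts. All KD libraries were above all control libraries, although KD replicate 4 and control replicate 5 lay close. The log2 fold change was 2.03 (SE 0.35, adjusted p = 0.000883 from limma), a mean of 19.7 FPKM ± 5.60 (SD, n = 4) against 4.65 ± 3.31 (SD, n = 4). Without control replicate 1, the library with the lowest Ino80e, it was 1.70, and the gene passed with any library left out. The level in KD blastocysts was also above that of control and KD morulae in 3 of 4 libraries. Ino80e shares 1103 exon bases (14.4%) with Doc2a and 150 with Hirip3 on the other strand, and the libraries were not stranded, so its values could hold reads of these genes. In blastocysts Doc2a was at 0.317 to 0.419 FPKM in control and 0.223 to 0.610 in KD libraries and Hirip3 at 1.5 to 2.21 and 0.765 to 1.11, and at the 2-cell stage Hirip3 was at 63.5 to 114.9 FPKM. The part of such reads in the values of Ino80e was not tested.

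Tfpt was at 9.53, 8.88, 13.8 and 10.7 FPKM in KD blastocysts, against 3.68, 8.20, 6.41 and 6.53 in control blastocysts. Every KD library was above every control library, with a narrow gap between KD replicate 4 and control replicate 4. The log2 fold change was 0.73 (SE 0.19, adjusted p = 0.0112 from limma), with an adjusted p between 0.0102 and 0.0298 when each library was left out. Even so, KD blastocysts stayed below all control morulae (19.3 to 33.2). Actr8 was at 4.07, 3.50, 5.51 and 6.10 FPKM in KD blastocysts. Only KD replicates 5 and 6 reached into the control range (4.89 to 9.60), and the log2 fold change was -0.54 (SE 0.19, adjusted p = 0.0464 from limma). This call was fragile, since the adjusted p ranged from 0.0217 to 0.116 with each library left out and passed only without control replicate 1 or KD replicate 6. The exact permutation test gave p = 0.0571, and the adjusted p was 0.0947 without the filter and 0.0819 without scaling. The call was lost without control replicate 4 (0.0931), 5 (0.114) or 6 (0.0995) and without KD replicate 1 (0.0958), 4 (0.116) or 5 (0.0662).

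The other members tested in blastocysts were not called. Mcrs1 was at 28.7, 20.1, 32.3 and 25.6 FPKM in KD libraries, within the control range (0.12, SE 0.20, adjusted p = 0.688 from limma). Ino80c was at 37.2, 26.9, 29.6 and 27.7 FPKM (0.26, SE 0.17, adjusted p = 0.258 from limma). Ino80d was at 1.03, 2.50, 4.54 and 1.99 FPKM and varied more between KD libraries than between control libraries (0.54, SE 0.24, adjusted p = 0.0981 from limma). The adjusted p of Ino80d ranged from 0.0193 to 0.244 with each library left out and passed without KD replicate 1 (0.0193). Of the members not tested, Ino80b was at 1.07, 0.704, 0.975 and 0.614 FPKM in KD libraries, all above the control libraries (0.135 to 0.437). When the filter on low FPKM was dropped, its log2 fold change was 0.51 (adjusted p = 0.0407 from limma over 34540 genes), and the exact permutation test gave p = 0.0286 (two-sided), the smallest that 4 against 4 libraries allow. Ino80 was at 0.809, 0.821, 2.06 and 1.15 FPKM, Actr5 at 0.753, 0.316, 0.530 and 0.628, and Nfrkb at 0.680, 0.611, 0.744 and 0.598, and each overlapped its control libraries.

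**Figure D2:**
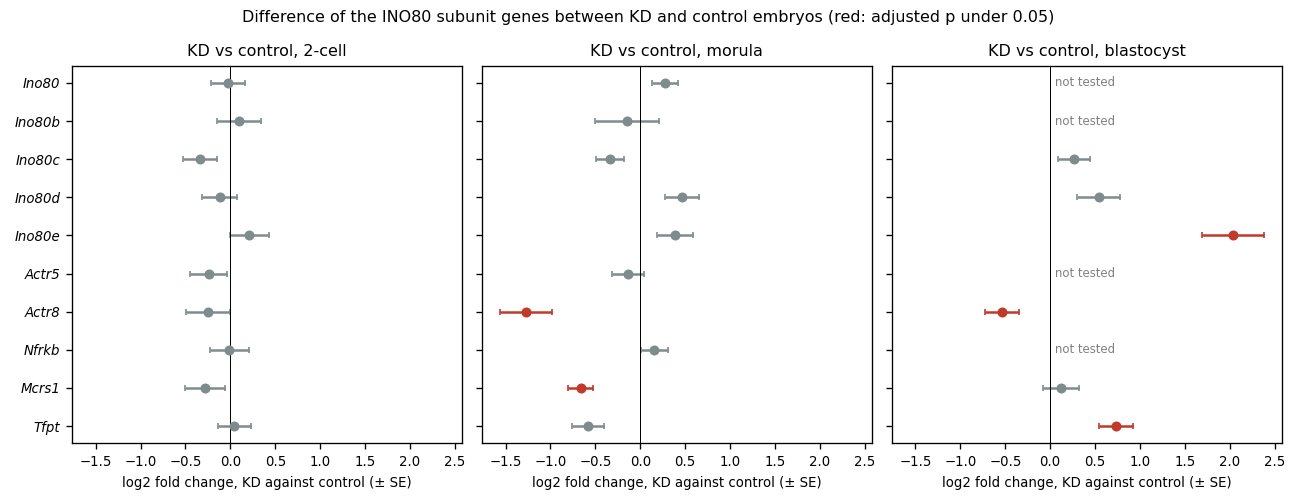
Log2 fold change of each subunit gene in KD against control embryos (horizontal axes, points, with the SE as bars) in 2-cell embryos, morulae and blastocysts, in red where the adjusted p was under 0.05. Actr8 (-1.27) and Mcrs1 (-0.66) were called in morulae, and Ino80e (2.03), Tfpt (0.73) and Actr8 (-0.54) in blastocysts.

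Some marker genes also differed between these blastocyst groups, and within a list not all went the same way. The sum of the 6 trophectoderm markers was 989 to 1474 FPKM in control and 584 to 784 in KD blastocysts, with Krt18 the most abundant in all of them, and 1 marker was called lower (Krt18) and 1 higher (Tfap2c). The sum of the 5 transcripts of the 2-cell stage was 0.540 to 2.54 FPKM in control and 3.43 to 25.3 in KD blastocysts, with Zfp352 and Tcstv3 tested and Tcstv3 called higher. Zfp352 was at most at 0.772 FPKM in control blastocysts and passed the filter only through the KD libraries, so it had to be higher there and its call is not counted, and Tcstv3 overlapped between the groups (exact permutation test, p = 0.0857). Markers of inner cell mass and epiblast summed to 114 to 224 FPKM in control and 141 to 286 in KD blastocysts, with 1 of 4 tested genes called higher (Klf4), and those of the primitive endoderm to 10.2 to 20.3 and 10.2 to 37.1. In all blastocyst libraries the latter sum was mostly Gata6 (mean 10.6 in control and 19.0 in KD blastocysts), the only gene of the list tested and not called, while Pdgfra (1.72 and 0.595) and Sox17 (0.596 and 0.277) had lower means in KD blastocysts. Of the inner cell mass markers, Pou5f1 (0.82) and Nanog (0.29) had positive log2 differences without a call, and Sox2 (-0.18) a negative one. Fgf4, below the filter, was at 0.459 to 0.554 FPKM in KD and 0.710 to 1.01 in control blastocysts. The part of these differences in the levels of Ino80e, Tfpt and Actr8 was not tested. For 7 of the 10 members the mean of KD blastocysts lay between those of control blastocysts and control morulae, and this held for 49.2% of 15697 genes. For Mcrs1 the means of KD and control blastocysts were 26.7 and 25.2 FPKM. Only the means were compared, and the order was not tested. Ino80d and Ino80e lay above both, and Actr8 lay below both.

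Whether the effect of the KD differed between the morula and blastocyst stages was tested as the interaction in a fit over the 15 libraries of both stages. All 10 members passed the filter, and 2 were called, both with a higher value in blastocysts, while 5.43% of the 12727 genes tested were called in this direction and 6.32% in the other. The balance of all genes depended on the setting, with 691 against 804 genes here, 894 against 703 without scaling, 729 against 580 with a pseudocount of 0.1 and 945 against 1063 with a batch term for low against high replicate numbers. It was 866 against 856 without blastocyst control replicate 5 and 398 against 590 without the filter, and 413 against 549 and 436 against 561 without morula KD replicate 1 or 2. For Tfpt the difference between the effects was 1.28 (SE 0.26, adjusted p = 0.00538 from limma), beside -0.58 in morulae and 0.73 in blastocysts from the separate fits, which have scaling factors of their own, and it passed with any library left out. For Ino80e it was 1.59 (SE 0.45, adjusted p = 0.0305 from limma). The adjusted p of Ino80e ranged from 0.00402 to 0.0619 with each library left out, and the call was lost without morula control replicate 1 (0.0587) or 2 (0.0588), morula KD replicate 1 (0.0615), 2 (0.0619) or 6 (0.0578), blastocyst control replicate 4 (0.0520) or blastocyst KD replicate 1 (0.0599). It was lost without the filter as well (0.124). Mcrs1, called in morulae and not in blastocysts, had a difference of 0.74 (SE 0.25, adjusted p = 0.0664 from limma), so a difference between its effects was not shown. Its adjusted p ranged from 0.0177 to 0.140 and passed without blastocyst control replicate 5 (0.0177) or blastocyst KD replicate 4 (0.0395). The differences of Actr8 (0.72, adjusted p = 0.208 from limma) and Ino80c (0.56, adjusted p = 0.119 from limma) were not called, although that of Actr8 passed without morula control replicate 8 (0.0226, of a range up to 0.349). Without scaling, the median of all genes in this comparison moved by 0.12, and 4 members were called.

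Subunits that INO80 shares with other complexes were examined as a list of 6 genes. In morulae 1 was lower and 0 higher (9.04% and 4.23% of all genes), in blastocysts 1 was higher and 0 lower (16.7% and 19.8% of all genes), and at the 2-cell stage 0 were called by limma, 0 of them with an unadjusted p under 0.05. The median log2 fold change of the list was -0.06 at the 2-cell stage, 0.16 in morulae and 0.19 in blastocysts, beside 0.0035, 0.02 and 0.0047 over all genes. Ruvbl1, whose product forms with RUVBL2 the ring of ATPases in the core, was at 67.1 to 80.3 FPKM in control and 42.0 to 46.9 in KD morulae (-0.62, SE 0.14, adjusted p = 0.0204 from limma). Its partner Ruvbl2 was at 176 to 193 and 173 to 191 FPKM in the same groups and was not called (0.12, adjusted p = 0.542 from limma), and a difference between the genes was not tested. In blastocysts Ruvbl2 was at 85.7 to 145 FPKM in control and 177 to 276 in KD embryos (0.88, SE 0.20, adjusted p = 0.00425 from limma), whereas Ruvbl1 was at 33.8 to 60.3 and 45.3 to 61.6 (0.08, SE 0.19, adjusted p = 0.768 from limma). Exons of Ruvbl2 overlap those of Gys1 and Lhb on the other strand, which makes its values uncertain, as do exons of Mrpl47 for Actl6a. Actl6a, an actin-related subunit, was below all control libraries in KD morulae (29.0 to 38.0 against 50.4 to 53.6 FPKM) and in KD blastocysts (27.1 to 31.5 against 35.3 to 43.1), with adjusted p-values of 0.0608 and 0.0736 from limma. Actb, Yy1 and Uchl5 overlapped between KD and control embryos at all 3 stages.

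Other regulators of H2A.Z served for comparison, namely the SRCAP and TIP60-p400 complexes, which deposit it, and the chaperone ANP32E, which removes it. Of 7 genes of the SRCAP complex and ANP32E, 1 was lower in KD morulae (9.04% of all genes), and 2 were higher and 1 lower in KD blastocysts (16.7% and 19.8% of all genes). The genes called were Dmap1 in morulae (-1.47) and Vps72 (0.90), Znhit1 (0.71) and Dmap1 (-0.57) in blastocysts. Of 11 genes of the TIP60-p400 complex, 1 was lower in KD morulae (Kat5, -1.29), and 2 were higher (Epc1, 0.96, and Mbtd1, 0.80) and 1 lower (Mrgbp, -0.68) in KD blastocysts, beside the same shares of all genes. Dmap1 belongs to the SRCAP and TIP60 complexes alike. The catalytic subunits Srcap and Ep400 and the chaperone gene Anp32e were not called at any stage. H2afv, which encodes another form of H2A.Z, was at 96.8 to 117.5 FPKM in control and 83.7 to 97.6 in KD 2-cell embryos, which overlap. It was at 92.5 to 113 FPKM in control and 9.90 to 12.9 in KD morulae, and at 49.9 to 63.5 and 10.6 to 19.9 in blastocysts. The sequences of the siRNAs were not among the files used here, so whether they also match H2afv was not examined.

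The members also differed in how their levels ran over the 22 libraries. Ino80 and Ino80d had a Pearson correlation of 0.902 on log2(FPKM + 1), Actr5 and Tfpt of 0.913, Actr5 and Nfrkb of 0.886, and Ino80c and Mcrs1 of 0.848, while Ino80e had 0.649 with Ino80c and 0.495 with Mcrs1. Ino80 and Actr8 had a correlation of -0.593. After the mean of each group was taken out, these correlations were 0.758 (Ino80 and Ino80d), 0.574 (Actr5 and Tfpt), 0.116 (Actr5 and Nfrkb), 0.707 (Ino80c and Mcrs1) and 0.401 (Ino80 and Actr8), and those of Ino80e 0.653 with Ino80c and 0.769 with Mcrs1. The libraries share their stages and groups, and the values are a description. The genes outside the complex whose pattern was most like that of Ino80, among 15687 compared, were Mapk6 (0.936), Zfp106 (0.936), Pprc1 (0.935), Xylb (0.930) and Mdn1 (0.930). With group means taken out, their correlations with Ino80 were 0.820, 0.731, 0.790, 0.717 and 0.772.

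The subunit genes lie on 8 chromosomes of GRCm38, the assembly of mm10, and all are protein coding. Ino80 (ENSMUSG00000034154.15) lies on chromosome 2 from 119373042 to 119477687 on the minus strand, with up to 36 exons, and Actr5 (ENSMUSG00000037761.16) on the same chromosome from 158624888 to 158639211. Mcrs1 (ENSMUSG00000037570.16) lies on chromosome 15 from 99242817 to 99251961, and Actr8 (ENSMUSG00000015971.5) on chromosome 14 from 29978337 to 30006354. Ino80e (ENSMUSG00000030689.15) and Tfpt (ENSMUSG00000006335.16), the members called higher in KD blastocysts among those that passed the filter, both lie on chromosome 7, from 126850960 to 126862377 and from 3620324 to 3629929, far apart and on the minus strand. Of the 10 members, 7 share exon bases with another annotated gene, most of them few. The overlap was 4 bases with Ndufa3 for Tfpt, 141 with Il17rb for Actr8 and 174 with 1700120C14Rik for Mcrs1.

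RefSeq promoters, from 250 bases before to 50 after the start of transcription (GRCm38.p6), were found for 6 members, with 2 for Ino80e and 7 in all. Searched on both strands, the letters CCAAT, bound by NFY, occurred in 4 of the 7 promoters (Ino80, Ino80e, Nfrkb and Tfpt) and in 37.4% of all 32851 promoters. The letters GGGCGG, bound by SP factors, occurred in 5 of the 7 (1 promoter of each member but Tfpt) and in 35.7% of all promoters. CCGGAAG, bound by ETS factors, occurred in 3 (Ino80b, Mcrs1 and Tfpt) and in 8.86%, CACGTG, bound by MYC, in 1 (Ino80e) and in 7.15%, and AANATGGC, bound by YY1, in 2 (Ino80b and Ino80e) and in 6.05%. Matches are a description of the letters only. Shown are the bases before the start that no annotated exon covers, 5′ to 3′, for Ino80 and Nfrkb, which were both lower in control morulae than in 2-cell embryos, and for Tfpt, whose response to the KD differed between stages. CCAAT and GGGCGG, on either strand, are in capitals. The stretches are chr2:119477688-119477937 on the minus strand, chr9:31385942-31386191 on the plus strand and chr7:3629930-3629984 on the minus strand.
Ino80: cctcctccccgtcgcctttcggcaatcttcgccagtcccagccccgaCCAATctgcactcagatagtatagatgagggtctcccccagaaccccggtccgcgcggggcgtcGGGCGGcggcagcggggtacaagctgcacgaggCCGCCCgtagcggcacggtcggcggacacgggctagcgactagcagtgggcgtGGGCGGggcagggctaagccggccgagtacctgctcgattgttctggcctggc
Nfrkb: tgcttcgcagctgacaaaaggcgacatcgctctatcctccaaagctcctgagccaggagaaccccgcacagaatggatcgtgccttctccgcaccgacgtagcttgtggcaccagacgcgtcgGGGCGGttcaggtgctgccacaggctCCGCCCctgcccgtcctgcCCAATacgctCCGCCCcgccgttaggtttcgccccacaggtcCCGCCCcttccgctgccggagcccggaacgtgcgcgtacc
Tfpt: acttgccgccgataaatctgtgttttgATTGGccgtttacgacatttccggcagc

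These results rest on 3 or 4 libraries per group, and the precision of levels near or under 1 FPKM, as those of Ino80b, Actr5, Nfrkb and Ino80 in control blastocysts, is not known. The amount of each protein and the composition of the complex were not measured.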

How the data were processed

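RNA-seq libraries of 15 embryos each (Smart-seq2, polyA, 16 to 18 cycles, paired 150 bp reads, not stranded) were read as 22 columns of FPKM, which the authors had computed with StringTie 2.1.4 after alignment to mm10 with STAR and then deposited. The depth of each library is not known, so counting error could not be given. Of the 55335 genes, 13853 were at 0 in all libraries. Libraries were scaled to each other by median-of-ratios factors, and log2(FPKM + 1) was tested with limma 3.58.1 (lmFit, eBayes with trend) in R 4.3.3, over genes reaching 1 FPKM in 3 libraries or more, with Benjamini-Hochberg adjustment over all genes tested. Tables and figures were made with Python 3.11.15, pandas 2.3.3, numpy 2.4.6 and matplotlib 3.10.9. On simulated data, the test recovered 39, 64 and 51.5% of 200 genes changed by 1 on the log2 scale (2-cell, morula and blastocyst designs), and 0% of those changed by 0.5. Far more than 200 genes were called in the real morulae and blastocysts, which loosens the adjusted threshold. The simulated shares therefore do not give the recovery in those comparisons, where some smaller changes were called.

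The genes named are the 10 members, 6 shared subunits, H2afz, H2afv, Srcap, Ep400, Anp32e, the 5 genes most correlated with Ino80, and up to 4 examples of each other list. Members and lists were chosen with earlier results of these data known. Zfp352, Tcstv3, Krt18, Tfap2c, Nanog, Klf4, Gata6, Pdgfra and Sox17 come from marker lists, and the overlap partners from the annotation. Libraries of a stage were treated as unpaired. The alternatives were a pseudocount of 0.1, no filter, no scaling, a batch term for low against high replicate numbers, replicate number as a block, an exact permutation test of each member between pairs of groups, and leaving out each library in turn. Gene models came from GENCODE and promoters from RefSeq, both on GRCm38.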

Additional observations from a re-analysis of the deposited data

Results flagged for a closer look

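Among 40 groups of 4 control or KD values of a member, 2 held a library far from the others, Ino80 in control morula replicate 1 (1.66 FPKM) and Nfrkb in 2-cell control replicate 2 (3.75 FPKM). About 1 in 20 groups is expected to do so by chance. The effect of the KD differed between blastocysts and morulae by 1.59 on the log2 scale for Ino80e and by 1.28 for Tfpt, both from the interaction test. For Tfpt, all KD libraries lay below all control libraries in morulae (-0.58) and above them in blastocysts (0.73).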

How the results depend on the processing

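With a pseudocount of 0.1 the 12 member counts and 41 gene results kept their direction and side of the threshold. Without the filter, the members lower in KD morulae went from 2 to 1, those lower in KD blastocysts from 1 to 0 and those with a higher interaction from 2 to 1, and the cause was not tested. Without the filter the members higher in KD blastocysts also went from 2 to 3 (Ino80b added), those lower in control blastocysts against morulae, with Ino80 among them, from 5 to 6 (Actr5 and Nfrkb added, Ino80e lost) and those lower in control morulae against 2-cell embryos from 5 to 4 (Tfpt lost). With the filter the direction of Ino80 in control blastocysts against morulae was fixed, and without Ino80 the filtered count was 4. Among all genes without the filter, 283 in place of 993 were lower in KD morulae, and 2067 in place of 2344 in KD blastocysts. Those higher in KD blastocysts were 1798 in place of 1977, and those with a higher interaction 398 in place of 691. Genes lower in control blastocysts against morulae were 3922 in place of 3413, and in control morulae against 2-cell embryos 8962 in place of 5506. The genes tested rose as well, from 11828 to 34540 in KD against control blastocysts. Without scaling the members lower in KD morulae, lower in KD blastocysts and with a higher interaction were 4, 0 and 4, and the cause was not tested. Among all genes these counts were 1553, 2375 and 894 without scaling, in place of 993, 2344 and 691. Among single genes, 5 calls were lost without the filter, 1 was lost and 4 were gained without scaling, 1 was gained with the batch term, and in the KD comparisons 2 were lost (Actr8 in morulae and blastocysts) and 1 was gained (H2afz in 2-cell embryos) with the exact permutation test. The p-values of the permutation test are not adjusted, and the unadjusted p of H2afz from limma was 4.47e-05. The gain of H2afz cannot be put down to the change of test alone. In control blastocysts against morulae the exact permutation test also ended the call of Ino80e (p = 0.0857). With each library left out, counts ranged from 0 to 2 (lower in KD morulae), 0 to 1 (higher in KD morulae), 0 to 1 (lower in KD blastocysts) and 1 to 3 (higher interaction), with fewer libraries in each fit. Among all genes they ranged from 411 to 1186, 140 to 558, 1900 to 2273 and 413 to 866 in the same order. The sign of 4 results that were not called turned, namely Ino80b in KD morulae (-0.39 to 0.13, positive without control replicate 1 or KD replicate 6), Mcrs1 in KD blastocysts (-0.017 to 0.26, negative without control replicate 1), Ino80b in control morulae against 2-cell embryos (-0.030 to 0.49, negative without morula control replicate 1) and Actr8 in control blastocysts against morulae (-0.23 to 0.21, negative without morula control replicate 8 or blastocyst control replicate 5). The cause was not tested. Correlations between control and KD libraries of the same number were 0.0146 to 0.214 at the 2-cell stage, 0.0944 to 0.181 in morulae and -0.111 to 0.354 in blastocysts, so not every 2-cell or blastocyst pair was over 0.1 and the numbers were not taken as pairs. Not every library correlated best with its own number, since 2-cell control replicate 2 had 0.205 with KD replicate 1. In morulae the ranges of numbers set libraries apart, with 6 of 6 correlations above 0 within a range (0.0944 to 0.347) and 0 of 6 across ranges (-0.278 to -0.0945), and at the 2-cell stage 5 of 6 and 1 of 6. The fits reported have no term for these ranges, and with it Tfpt in morulae went from an adjusted p of 0.0551 to 0.0102, over a range of 0.0102 to 0.158 for all alternatives. With a replicate block, 2 members in place of 5 were lower in control morulae than in 2-cell embryos, since Ino80 (adjusted p = 0.0637), Actr5 (0.0559) and Tfpt (0.175) were no longer called, while Ino80b in this comparison (0.00269) and Tfpt in KD morulae (0.0191) were, and 645 genes in place of 465 were higher and 979 in place of 993 lower in KD morulae, and the cause was not tested. Depth is not known, so the precision of low values could not be given.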
